A study of Rattus norvegicus with 14 samples.

Results

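This comparison set cultured rat heart muscle cells that had received the BET inhibitor JQ1 and 6 h of phenylephrine (PE) against unstimulated cells. It was defined by the array titles: 3 arrays of JQ1 with PE at 6 h and 3 arrays of DMSO for 90 min without PE, 6 of the 14 arrays measured. Every one of the 13184 genes with a named probe set was tested, each on its brightest probe set. The cells were neonatal rat ventricular myocytes (NRVM) of Sprague-Dawley pups aged 2 days, pre-plated to deplete non-myocytes and kept without serum before treatment. Each group received JQ1 or its vehicle DMSO, and PE was used at 100 µM. No JQ1 concentration is given in the sources used here. The treatment protocol places JQ1 or DMSO 6 h ahead of PE, whereas the design text puts PE first, so the order is unsettled. JQ1, PE and time after treatment all differ between the groups compared, and their shares in a change cannot be told apart from this comparison alone. The matching vehicle arm, DMSO with PE for 6 h (2 arrays), is therefore given beside it: its difference from the unstimulated arrays joins PE with time after treatment (6 h against 90 min), called PE alone here for short, and its difference from JQ1 with PE tests the inhibitor at matched time. Whether the arrays of one group stem from separate cultures is not stated, so the spread behind each p-value is that between these arrays and may be technical. In RNA from whole cultures, fewer cells of a type and less RNA per cell cannot be told apart.

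BET proteins, such as Brd2 and Brd3, bind acetylated lysines on histones through their bromodomains and recruit the elongation kinase P-TEFb, made of Cdk9 and cyclin T, to promoters and enhancers. JQ1 occupies the bromodomains and releases BET proteins from chromatin. PE activates alpha1-adrenergic receptors, which signal through Gq, calcium, protein kinase C and MAP kinases. In neonatal myocytes this switches on immediate early genes within the first hours and later enlarges the cell, a standard culture model of cardiac hypertrophy. The comparison asks which part of that early response is still seen under BET inhibition, and which changes are seen with JQ1 and PE that are small with PE alone.

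The arrays were alike in correlation and control signal, while their medians differed with JQ1. Array medians ran from 7.28 to 7.43 on the log2 scale. All arrays with JQ1, at 7.279 to 7.319, lay below all arrays without it, at 7.365 to 7.43. Arrays of the same group correlated at 0.998 to 0.9989 across genes. The 3′ minus 5′ signal of the Gapdh control ran from -0.085 to -0.037 over the 8 arrays used, and that of the hexokinase control from 1.10 to 1.42. All 15 measured cardiomyocyte markers lay above the dim limit, a log2 level of 6.23 that marks the lowest 30% of genes. Signal below that limit is close to background, which leaves the size of a change involving it uncertain. By contrast 9 of 14 endothelial and 7 of 16 macrophage and leukocyte markers were dim in all 3 groups.

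At 6 h of JQ1 with PE, most genes had moved a little and a minority a lot. In limma's moderated test with Benjamini-Hochberg adjustment over all genes, 8256 genes (62.6%) passed an adjusted p of 0.05, 4071 raised (30.9%) and 4185 lowered (31.7%). Of these, 346 rose at least 2-fold (2.62%) and 713 fell at least 2-fold (5.41%), and 43 and 109 changed at least 4-fold. With PE without JQ1, against the same unstimulated arrays, 4908 genes passed (37.2%), 2416 upward (18.3%) and 2492 downward (18.9%). Of those, 133 rose (1.01%) and 70 fell (0.531%) at least 2-fold. JQ1 with PE against DMSO with PE gave 7156 genes (54.3%), 3362 higher (25.5%) and 3794 lower (28.8%). In that contrast 163 genes were at least 2-fold higher (1.24%) and 490 at least 2-fold lower (3.72%). The first and second contrasts share the unstimulated arrays, so their values stand side by side and are not set against each other. The split of calls depended on scaling. Raised genes made up 49.3% of calls as deposited but 61.7% (5507 raised and 3418 lowered) when each array was centred on its median, which moved the median change of all genes from 0.03 to 0.12. For JQ1 with PE against DMSO with PE the same centring moved the share from 47.0% to 61.9%.

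**Figure D1:**
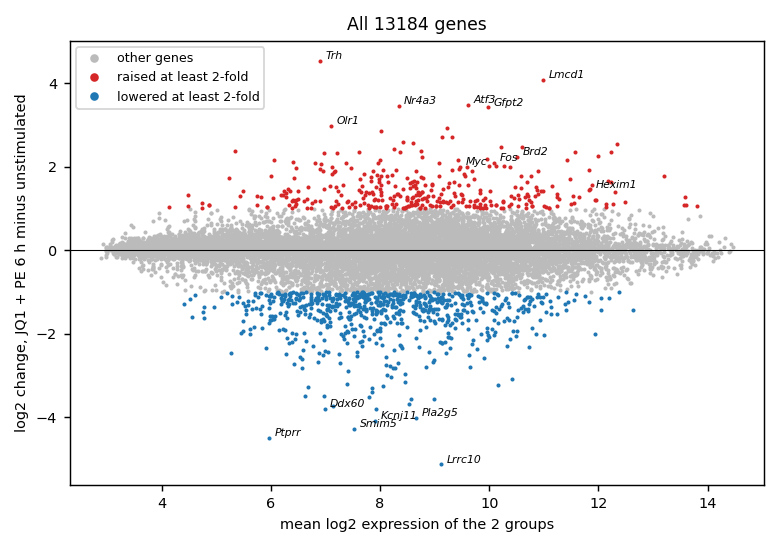
Log2 change of each of the 13184 genes in JQ1 with PE at 6 h minus unstimulated DMSO (y axis) against its mean log2 expression over the 2 groups (x axis), with n = 3 arrays each. Red and blue points passed an adjusted p of 0.05 and changed at least 2-fold (346 raised, 713 lowered), and the lowered points outnumber and outreach the raised ones.

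The genes that rose most were genes that PE alone also raised, and their levels in JQ1 with PE were higher still. Log2 levels of Trh were 4.53, 4.77 and 4.61 in the unstimulated arrays, 6.95 and 7.002 in DMSO with PE and 9.10, 9.32 and 9.09 in JQ1 with PE. Trh, which encodes the precursor of thyrotropin-releasing hormone, was dim without PE, and its 3 groups did not overlap. It rose by 4.53 ± 0.095 (log2 change ± SE, 23.1-fold; adjusted p = 1.8e-12) with JQ1 and PE and by 2.34 ± 0.107 with DMSO and PE. Log2 levels of Lmcd1 were 8.95, 9.01 and 8.88 in the unstimulated arrays, 11.56 and 11.21 in DMSO with PE and 13.08, 13.01 and 12.97 in JQ1 with PE. Lmcd1 encodes a LIM domain protein of muscle known to promote calcineurin signalling and hypertrophy. Its arrays again formed 3 separate steps, and it rose 16.8-fold with JQ1 and PE (log2 change 4.07 ± 0.090; adjusted p = 2.1e-12) against 5.41-fold with PE alone.

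For Atf3 the unstimulated arrays read 7.81, 7.88 and 7.90 (log2 level), DMSO with PE 9.23 and 9.06, and JQ1 with PE 11.51, 11.24 and 11.31. Atf3, a stress-induced bZIP transcription factor, rose by 3.49 ± 0.080 with JQ1 and PE and by 1.28 ± 0.089 with PE alone, so that more of its change was seen only where JQ1 was present (difference 2.21 ± 0.089; adjusted p = 9.5e-10). For Nr4a3 the unstimulated arrays read 6.73, 6.48 and 6.63 (log2 level), DMSO with PE 9.34 and 9.41, and JQ1 with PE 10.06, 10.04 and 10.12. The orphan nuclear receptor gene Nr4a3 was the reverse case: most of its rise of 3.46 ± 0.080 was already seen with PE alone (2.76 ± 0.089). The further difference with JQ1 was 0.70 ± 0.089 (adjusted p = 2.2e-05), and no groups overlapped. A second probe set of Nr4a3 gave a log2 change of 4.25, and a dim one gave 0.69, both past the threshold.

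Other large rises came from metabolic and surface proteins. Gfpt2, the entry enzyme of the hexosamine pathway, rose by 3.42 ± 0.072 on the log2 scale against 2.06 ± 0.081 with PE alone. Gch1, which starts tetrahydrobiopterin synthesis, rose by 2.59 ± 0.071 against 1.36 ± 0.080. The hydrolase gene Abhd2 rose by 2.85 ± 0.084 and the circadian phosphatase gene Noct by 2.70 ± 0.045, with 2.17 ± 0.094 and 1.84 ± 0.051 under PE alone. Cd55, which protects cells from complement, rose by 2.94 ± 0.060 against 1.95 ± 0.067. Log2 levels of Olr1 were 5.67, 5.83 and 5.34 in the unstimulated arrays, 7.89 and 8.10 in DMSO with PE and 8.69, 8.47 and 8.58 in JQ1 with PE. Olr1, the receptor for oxidised low-density lipoprotein, was therefore dim before PE and above the dim limit in every array with PE. It rose by 2.97 ± 0.117 with JQ1 and by 2.38 ± 0.131 without. For all 12 of the largest rises, JQ1 with PE stood above DMSO with PE as well (adjusted p at most 0.00325, for Nr4a1). These genes were chosen by their rise with JQ1 and PE on the same JQ1 arrays. That choice favours this order, so it is no separate test.

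Genes were also ranked by the smaller of their changes in the JQ1 and DMSO arms, which picks those moved strongly in both. The leading 6 raised were Nr4a3, Lmcd1, Olr1, Trh, Fdx1 and Abhd2. Log2 levels of Fdx1 were 11.03, 11.08 and 11.13 in the unstimulated arrays, 13.41 and 13.34 in DMSO with PE and 13.63, 13.63 and 13.60 in JQ1 with PE. Fdx1 encodes ferredoxin, the electron donor of mitochondrial P450 enzymes. It was high in every PE array, with a rise of 2.54 ± 0.052 under JQ1 and 2.29 ± 0.058 without it, and JQ1 added 0.25 ± 0.058 (adjusted p = 0.00286).

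The promoters of Lmcd1 and Olr1, from 250 bases before the start site to 50 after it, are shown because these genes rose strongly in both arms. They were read from RefSeq's rat table (GRCr8), where 282 of the 346 genes raised at least 2-fold had an entry. The motifs searched on both strands were the full cyclic AMP response element TGACGTCA, its core TGACG, the AP-1 site TGANTCA, the E-box CACGTG, the GC box GGGCGG, the TATA box TATAAA and the CArG box. Matches are in capitals.
Lmcd1 (chr4:146948743-146949042, plus strand): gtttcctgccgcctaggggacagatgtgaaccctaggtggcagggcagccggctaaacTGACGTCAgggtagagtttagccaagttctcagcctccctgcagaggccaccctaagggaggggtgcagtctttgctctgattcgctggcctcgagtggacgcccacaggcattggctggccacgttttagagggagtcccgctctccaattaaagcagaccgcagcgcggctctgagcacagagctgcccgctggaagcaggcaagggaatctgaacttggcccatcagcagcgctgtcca
Olr1 (chr4:164634498-164634797, minus strand): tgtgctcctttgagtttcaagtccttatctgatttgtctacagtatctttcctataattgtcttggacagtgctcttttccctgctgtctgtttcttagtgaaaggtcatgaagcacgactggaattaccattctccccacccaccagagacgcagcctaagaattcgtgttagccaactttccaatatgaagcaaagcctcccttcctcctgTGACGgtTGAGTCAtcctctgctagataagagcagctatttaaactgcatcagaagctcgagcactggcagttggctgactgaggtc
In the Lmcd1 window the full response element TGACGTCA starts at position -192 relative to the start site, and both of its TGACG matches lie inside it. The Olr1 window holds TGACG at -37 and TGAGTCA, a form of TGANTCA, at -30. Over gene groups, TGACGTCA was held by 17 of the 282 promoters of genes raised at least 2-fold (6.0%), by 11 of 562 of genes lowered at least 2-fold (2.0%) and by 2.9% of genes tested. All 27457 promoters of the table held it at 1.9%. The core TGACG was in 42.6% of the raised set, 21.9% of the lowered set and 29.7% of genes tested, and in 6030 of all promoters. GGGCGG was in 74.8%, 49.5%, 58.2% and 34.9% of the same sets. For TGANTCA the shares were 7.1% among raised and 7.1% among lowered genes, beside 5.5% of genes tested and 7.3% of all promoters. For the CArG box, the site of serum response factor, they were 2.5%, 1.6%, 1.3% and 1.6%. These shares describe letters in the windows, and no site was tested for binding.

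**Figure D2:**
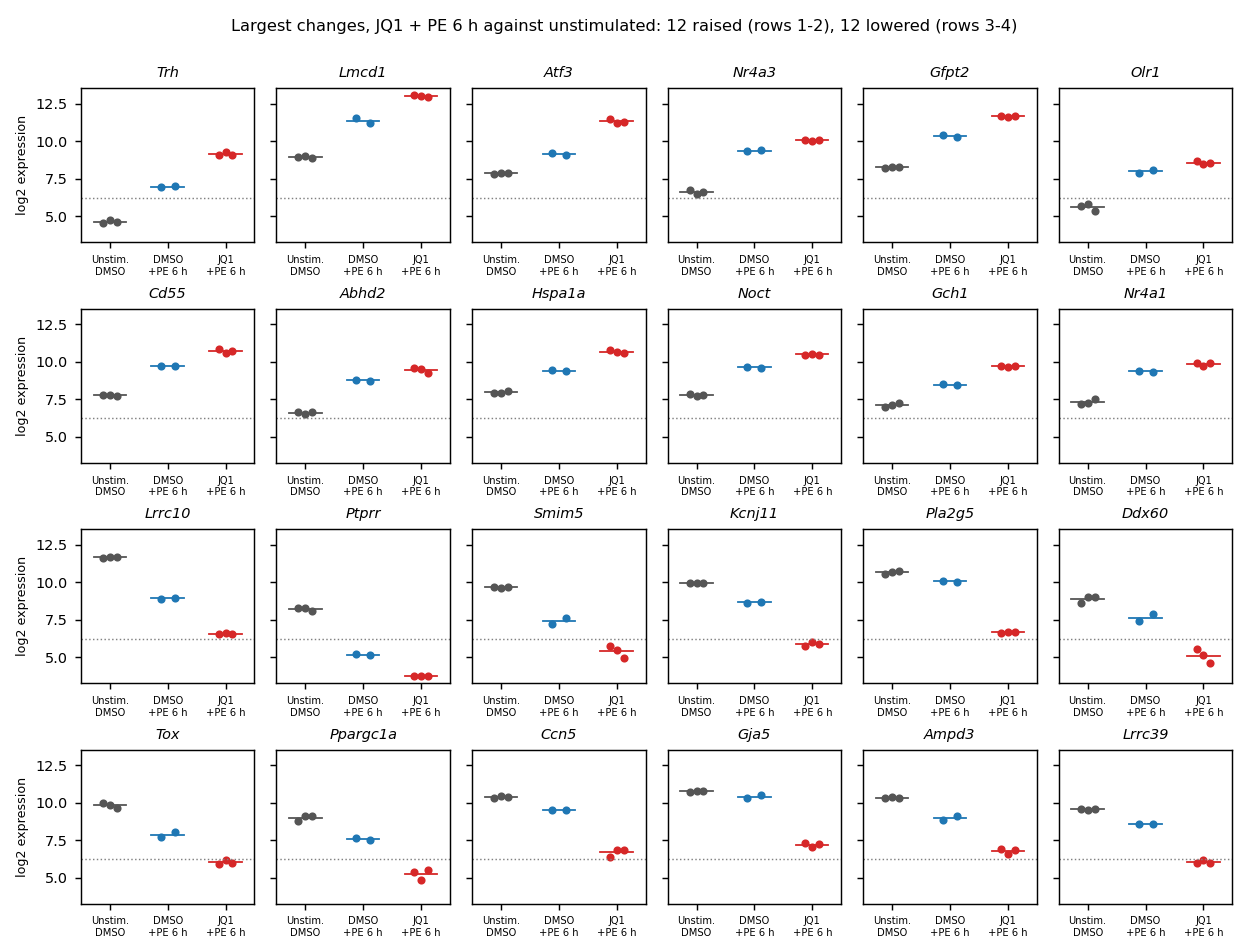
Log2 expression on each array for the 12 genes raised most (upper rows) and the 12 lowered most (lower rows) in JQ1 with PE at 6 h against unstimulated DMSO. Grey, blue and red points are single arrays of unstimulated DMSO, DMSO with PE and JQ1 with PE (n = 3, 2 and 3), lines are group means and the dotted line is the dim limit of 6.23. In every panel the blue arrays lie between the grey and the red ones, an order favoured by choosing genes on the red minus grey change.

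The immediate early transcription factors, the first genes to respond to Gq and MAP kinase signalling, stood higher as a group under JQ1. Of 28 measured, 25 rose and 0 fell with JQ1 and PE (30.9% and 31.7% of all genes), with a median log2 change of 1.04 against 0.03 over all genes, and 18 rose at least 2-fold. With PE alone 25 rose and 1 fell (18.3% and 18.9% of all genes), with a median of 0.53. Between the PE arms, 20 were higher and 2 lower with JQ1 (25.5% and 28.8% of all genes). Log2 levels of Fos were 8.98, 9.05 and 9.11 in the unstimulated arrays, 11.20 and 11.17 in DMSO with PE and 11.20, 11.07 and 11.14 in JQ1 with PE. Fos, a subunit of the AP-1 factor, was high in both PE arms, whose arrays overlapped. It rose by 2.09 ± 0.063 with JQ1 and by 2.14 ± 0.071 without, a difference of -0.05 (95% interval -0.202 to 0.105; adjusted p = 0.603).

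Other AP-1 subunits differed from Fos. For Fosl1 the unstimulated arrays read 6.26, 6.42 and 6.25 (log2 level), DMSO with PE 7.77 and 7.77, and JQ1 with PE 7.48, 7.47 and 7.49. Fosl1 rose in both arms but by less under JQ1 (1.17 ± 0.066 against 1.47 ± 0.074; difference -0.29 ± 0.074, adjusted p = 0.00464). Junb rose by 1.03 ± 0.052 with JQ1 and by 0.30 ± 0.059 without. Jun rose by 1.12 ± 0.050 with JQ1 while its change with PE alone was 0.00 (adjusted p = 0.981). The zinc finger gene Egr1 rose by 1.11 ± 0.050 against 0.35 ± 0.056, and Ier2 by 1.71 ± 0.051 against 1.01 ± 0.057. Among the NR4A nuclear receptors, Nr4a1 rose by 2.56 ± 0.109 and Nr4a2 by 1.02 ± 0.070 with JQ1, and by 2.06 ± 0.121 and 0.45 ± 0.078 with PE alone.

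Log2 levels of Myc were 8.52, 8.32 and 8.58 in the unstimulated arrays, 9.04 and 9.16 in DMSO with PE and 10.59, 10.43 and 10.40 in JQ1 with PE. Myc, a growth factor-responsive transcription factor that drives ribosome production, rose by 2.000 ± 0.078 with JQ1 and PE and by 0.63 ± 0.087 with PE alone. The PE arms did not overlap and differed by 1.37 ± 0.087 (adjusted p = 4.6e-08). Of 28 measured genes of MYC and ribosome biogenesis, 28 rose with JQ1 and PE (30.9% of all genes), with a median log2 change of 0.71. With PE alone 26 rose and 0 fell (18.3% and 18.9% of all genes), with a median of 0.42. Rrp12, a ribosome export factor, rose by 1.78 ± 0.064 and 1.39 ± 0.072 in the arms with and without JQ1. The polyamine enzyme gene Odc1 rose by 0.99 ± 0.039 and 0.36 ± 0.043, and Bop1, needed for the large ribosomal subunit, by 1.12 ± 0.048 and 0.48 ± 0.054.

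**Figure D3:**
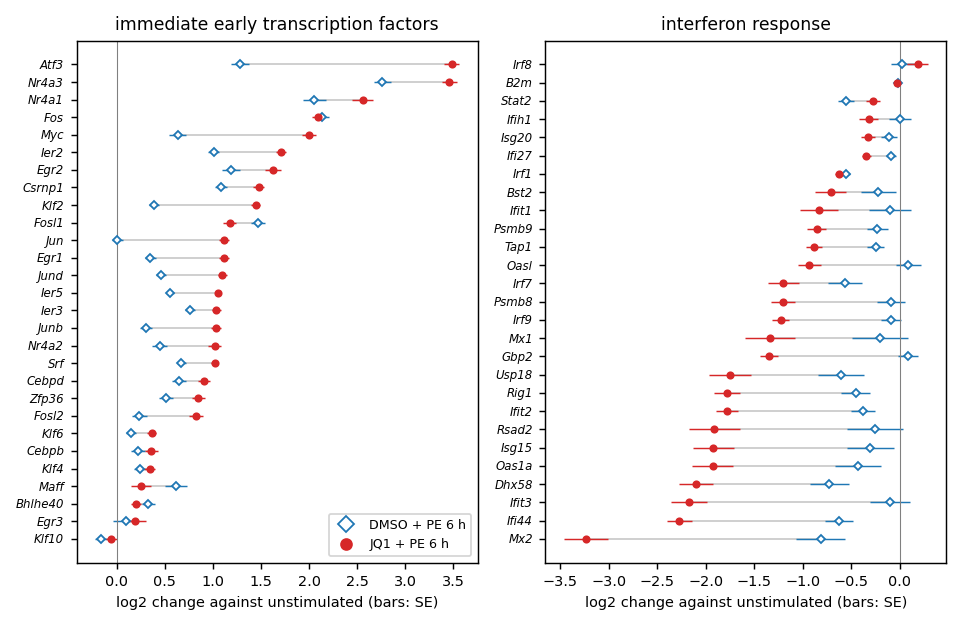
Log2 change against unstimulated DMSO (x axis, ± SE of the limma fit) of the 28 measured immediate early transcription factors and the 27 measured interferon response genes. Filled red points are JQ1 with PE at 6 h (n = 3) and open blue diamonds DMSO with PE at 6 h (n = 2), both against the same 3 unstimulated arrays. Red points lie right of 0 for most early factors and left of 0 for 26 of the 27 interferon genes, all but Irf8.

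Hypertrophic marker genes, the fetal and structural transcripts that rise in enlarging myocytes, were mostly higher. Of 20 measured, 17 rose and 2 fell with JQ1 and PE (median 0.80, beside 30.9% and 31.7% of all genes). With PE alone 17 rose and 0 fell (median 0.61, beside 18.3% and 18.9% of all genes). Only 1 of the falls with JQ1 and PE passed when arrays were centred. For Acta1 the unstimulated arrays read 13.25, 13.27 and 13.27 (log2 level), DMSO with PE 13.81 and 13.84, and JQ1 with PE 14.34, 14.32 and 14.34. Skeletal actin, Acta1, rose in separate steps by 1.07 ± 0.030 with JQ1 and 0.56 ± 0.033 without. The filamin gene Flnc rose by 2.35 ± 0.045 against 1.18 ± 0.050, the intercalated disc gene Xirp1 by 2.47 ± 0.062 against 1.21 ± 0.070, and the growth factor gene Hbegf by 1.80 ± 0.043 against 0.98 ± 0.048.

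The natriuretic peptide genes changed little between the PE arms. Log2 levels of Nppb were 13.27, 13.30 and 13.26 in the unstimulated arrays, 13.94 ± 0.078 (mean ± SD, n = 2) in DMSO with PE and 14.002, 14.004 and 14.04 in JQ1 with PE. Nppb rose by 0.74 ± 0.041 with JQ1 and by 0.67 ± 0.046 without, and the difference of 0.07 did not pass (adjusted p = 0.229). Nppa rose by 0.35 ± 0.033 and 0.34 ± 0.037, with a difference of 0.01 (adjusted p = 0.867). For Myh7 the unstimulated arrays read 13.89, 13.85 and 13.90 (log2 level), DMSO with PE 13.92 and 13.98, and JQ1 with PE 13.53, 13.44 and 13.50. The fetal myosin heavy chain gene Myh7 fell with JQ1 and PE (-0.39 ± 0.040, adjusted p = 1.8e-06). Its change with PE alone did not pass (0.07 ± 0.045, adjusted p = 0.284). A second probe set of Myh7, at a mean log2 level of 8.35, did not pass with JQ1 and PE (-0.22 ± 0.134, adjusted p = 0.174). It gave 0.43 with PE alone. The adult form Myh6 stood at -0.08 ± 0.032 (adjusted p = 0.0543), which passed under 3 other settings. Ccn2, a matrix-associated growth regulator, rose by 0.14 ± 0.039 and 0.16 ± 0.043, the first of which did not pass after repeated quantile normalization (adjusted p = 0.0524).

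Targets of serum response factor and other cytoskeletal genes rose more often than they fell in both arms. Of 27, 16 rose and 6 fell with JQ1 and PE (3 fell when arrays were centred), with a median of 0.34. With PE alone 17 rose and 4 fell. The shares over all genes were 30.9% and 31.7% with JQ1 and PE, and 18.3% and 18.9% with PE alone. Enah, an actin regulator, rose by 1.90 ± 0.042 and 1.36 ± 0.047, the tubulin gene Tubb6 by 1.26 ± 0.042 and 1.14 ± 0.047, and Srf itself by 1.02 ± 0.039 and 0.67 ± 0.043. Heat shock and co-chaperone genes rose in 13 of 16 cases and fell in 1 (0 when arrays were centred), with a median of 0.38. PE alone raised 10 and lowered 1, and the shares over all genes are those given above. The chaperone Hspa1a rose by 2.70 ± 0.062 against 1.44 ± 0.069, and the small heat shock genes Hspb6 and Hspb7 by 1.78 ± 0.041 and 1.28 ± 0.048. Of 23 sarcomere genes 8 rose and 11 fell with JQ1 and PE (10 and 10 when arrays were centred), beside 30.9% and 31.7% of all genes. The titin cap gene Tcap rose by 2.17 ± 0.036, while the Z-disc gene Myoz2 (-1.43 ± 0.038) and the M-band genes Myom1 (-1.37 ± 0.050) and Myom2 (-1.93 ± 0.084) fell.

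The genes that fell most included cardiac structural, signalling and ion channel genes. Log2 levels of Lrrc10 were 11.64, 11.67 and 11.72 in the unstimulated arrays, 8.87 and 8.98 in DMSO with PE and 6.52, 6.61 and 6.54 in JQ1 with PE. Lrrc10 encodes a heart-restricted protein near the Z-disc, and it fell 34.8-fold with JQ1 and PE (log2 change -5.12 ± 0.063; adjusted p = 8.9e-14) and 6.75-fold with PE alone. Log2 levels of Ptprr were 8.29, 8.26 and 8.11 in the unstimulated arrays, 5.19 and 5.14 in DMSO with PE and 3.72, 3.73 and 3.73 in JQ1 with PE. Ptprr, a phosphatase that acts on MAP kinases, was thus dim in both PE arms, and its log2 change, the scale of every change given with its SE, was -4.49 ± 0.070 with JQ1 and -3.06 ± 0.078 without. Other genes that fell strongly in both arms were Smim5 (-4.28 ± 0.214 and -2.26 ± 0.239), the nuclear protein gene Tox (-3.80 ± 0.105 and -1.96 ± 0.118) and Phactr1, a regulator of actin and protein phosphatase 1 (-3.19 ± 0.111 and -1.84 ± 0.124). Pik3ip1, an inhibitor of PI3 kinase, fell, with a change of -2.78 ± 0.070 and -2.11 ± 0.078, but a dim probe set of it stood at 0.06 ± 0.063 with JQ1 and PE.

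For several of the largest falls the step with PE alone was the smaller part of the change. For Pla2g5 the unstimulated arrays read 10.57, 10.68 and 10.76 (log2 level), DMSO with PE 10.10 and 10.02, and JQ1 with PE 6.60, 6.67 and 6.68. Pla2g5, a secreted phospholipase A2, fell, with a change of -4.02 ± 0.061 with JQ1 and PE and with a change of -0.61 ± 0.068 with PE alone. For Gja5 the unstimulated arrays read 10.74, 10.77 and 10.81 (log2 level), DMSO with PE 10.30 and 10.52, and JQ1 with PE 7.29, 7.07 and 7.27. Gja5, which encodes connexin 40 of the conduction system, fell, with a change of -3.56 ± 0.069 against -0.37 ± 0.078, and its JQ1 arrays lay far below both other groups. A dim probe set of Gja5 stood at -0.27 with JQ1 and PE and did not pass. Ccn5, a matricellular protein gene, fell, with a change of -3.67 ± 0.101 against -0.85 ± 0.113, and the M-band gene Lrrc39 with a change of -3.51 ± 0.054 against -0.95 ± 0.060. The helicase gene Ddx60 fell, with a change of -3.80 ± 0.241 against -1.24 ± 0.270, and the AMP deaminase gene Ampd3 with a change of -3.55 ± 0.086 against -1.36 ± 0.096.

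Log2 levels of Kcnj11 were 9.93, 9.97 and 9.96 in the unstimulated arrays, 8.65 and 8.68 in DMSO with PE and 5.78, 5.98 and 5.87 in JQ1 with PE. Kcnj11 encodes the pore of the ATP-sensitive potassium channel, and it fell 16.9-fold with JQ1 and PE to a dim level against 2.45-fold with PE alone. A second, dim probe set of Kcnj11 gave a log2 change of -2.33 with JQ1 and PE. Another dim one stood at -0.14 and did not pass. Of 28 genes of calcium cycling and ion channels, 5 rose and 15 fell with JQ1 and PE (median -0.21). With PE alone 5 rose and 14 fell (median -0.11). All genes gave 30.9% and 31.7% with JQ1 and PE, and 18.3% and 18.9% with PE alone. The potassium channel gene Kcnq1 fell, with a change of -1.32 ± 0.046 and the calcium release channel gene Ryr2 with a change of -1.003 ± 0.039. The sodium-calcium exchanger gene Slc8a1 rose by 1.42 ± 0.065 from a dim level. The calcium pump gene Atp2a2 stood at -0.27 ± 0.033 on its brightest probe set, but 2 other probe sets passed in the opposite direction (0.53 and 0.23), so its direction depends on the probe set.

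Genes known to be lowered in hypertrophy fell further under JQ1 in the comparison of the PE arms. Of 19, 13 were lower and 0 higher with JQ1 (28.8% and 25.5% of all genes). Against unstimulated cells, 15 fell and 1 rose with JQ1 and PE (median -0.63, beside 31.7% and 30.9% of all genes). With PE alone 14 fell and 2 rose (median -0.25, beside 18.9% and 18.3% of all genes). The potassium channel gene Kcnd2 was the 1 that rose with JQ1 and PE (0.56 ± 0.109). Log2 levels of Ppargc1a were 8.80, 9.10 and 9.09 in the unstimulated arrays, 7.62 and 7.51 in DMSO with PE and 5.41, 4.84 and 5.54 in JQ1 with PE. Ppargc1a, the coactivator that drives mitochondrial gene expression, fell, with a change of -3.74 ± 0.242 with JQ1 and PE to a dim level and with a change of -1.43 ± 0.270 with PE alone. The spread among its JQ1 arrays was wider than for most genes, but the groups did not overlap.

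Mitochondrial fuel genes were lower in both arms. Of 34 genes of fatty acid oxidation, 26 fell and 3 rose with JQ1 and PE (median -0.40). With PE alone 28 fell and 2 rose (median -0.32). Between the PE arms 14 were lower and 8 higher with JQ1 (median -0.04, beside 28.8% and 25.5% of all genes). For this list and the next, the shares over all genes were 31.7% and 30.9%, and 18.9% and 18.3% with PE alone. Cpt1b, the muscle carnitine palmitoyltransferase, fell, with a change of -2.20 ± 0.073 against -0.76 ± 0.082, Cpt2 with a change of -0.87 ± 0.044 against -0.67 ± 0.049, and the pyruvate dehydrogenase kinase gene Pdk2 with a change of -2.08 ± 0.043 against -1.13 ± 0.049. The thioesterase gene Acot2 fell with JQ1 and PE (-1.11 ± 0.045) and rose with PE alone (0.18 ± 0.051), while the dim Acot1 rose by 1.14 ± 0.068. Of 29 respiratory chain genes, 25 fell and 2 rose (19 fell when arrays were centred), with a median of -0.28, and with PE alone 14 fell and 2 rose (median -0.10). The complex II genes Sdhd and Sdha fell, with a change of -0.77 ± 0.030 and -0.69 ± 0.035, and the complex I gene Ndufs3 with a change of -0.81 ± 0.034. Genes of glycolysis and glucose uptake were divided. Of 26, 9 rose and 12 fell (13 and 9 when arrays were centred), beside 30.9% and 31.7% of all genes. The lactate transporter gene Slc16a3 rose by 1.32 ± 0.059 and muscle phosphofructokinase, Pfkm, fell, with a change of -1.15 ± 0.043.

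A second set of genes rose with PE alone and was not raised, or was raised less, when JQ1 was present. Thbd, Ptgis, Ch25h, Il12a, Bmper and Yipf7 were chosen for opposite changes, without overlap, with PE alone and between the PE arms. Both contrasts share the DMSO with PE arrays, which favours opposite signs. For these genes the order and its p-values are therefore no separate test. Log2 levels of Thbd were 7.92, 8.13 and 8.07 in the unstimulated arrays, 9.81 and 9.88 in DMSO with PE and 6.88, 6.71 and 6.79 in JQ1 with PE. Thrombomodulin, Thbd, an anticoagulant receptor, was highest in DMSO with PE and lowest in JQ1 with PE, with no overlap. It rose by 1.80 ± 0.075 with PE alone and fell, with a change of -1.25 ± 0.067 with JQ1 and PE, a difference of -3.05 ± 0.075 (adjusted p = 2.4e-11). Log2 levels of Ptgis were 10.47, 10.45 and 10.41 in the unstimulated arrays, 12.31 and 12.15 in DMSO with PE and 10.37, 10.41 and 10.36 in JQ1 with PE. The prostacyclin synthase gene Ptgis rose by 1.78 ± 0.050 with PE alone, and with JQ1 and PE its arrays overlapped the unstimulated ones (-0.06 ± 0.045; adjusted p = 0.232). For Ch25h the unstimulated arrays read 5.42, 5.32 and 5.47 (log2 level), DMSO with PE 8.31 and 8.75, and JQ1 with PE 6.56, 6.47 and 6.31. Ch25h, which makes the immune oxysterol 25-hydroxycholesterol, rose by 3.13 ± 0.113 with PE alone and still rose by 1.04 ± 0.101 with JQ1, so part of its rise was seen in both arms.

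The cytokine subunit gene Il12a, dim without PE, rose by 2.11 ± 0.135 with PE alone, and with JQ1 and PE it stood at -0.98 between 2 dim levels. Bmper, which binds bone morphogenetic proteins, rose by 1.56 ± 0.087 without JQ1, and Yipf7 by 1.06 ± 0.070. Both lay below the unstimulated arrays with JQ1 (-0.51 and -1.002), and Bmper was dim in both of those groups. Log2 levels of Rgs2 were 10.17, 10.23 and 10.16 in the unstimulated arrays, 12.59 and 12.57 in DMSO with PE and 11.39, 11.29 and 11.36 in JQ1 with PE. Rgs2 limits signalling by Gq-coupled receptors, and it rose by 2.39 ± 0.062 without JQ1 and by 1.16 ± 0.055 with it, a difference of -1.23 ± 0.062 (adjusted p = 6.1e-09). For Il6 the unstimulated arrays read 6.15, 6.38 and 5.89 (log2 level), DMSO with PE 8.08 and 8.14, and JQ1 with PE 6.81, 6.55 and 6.55. The cytokine gene Il6 rose by 1.97 ± 0.151 with PE alone, and its JQ1 arrays lay only slightly above the unstimulated ones (0.50 ± 0.135; adjusted p = 0.00567). Rcan1, an inhibitor of calcineurin, rose by 0.72 ± 0.051 with JQ1 and 0.94 ± 0.057 without.

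Inflammatory cytokine and chemokine genes showed the same contrast as a list. With PE alone 17 of 29 rose and 2 fell (median 0.32), beside 18.3% and 18.9% of all genes. With JQ1 and PE 10 rose and 11 fell (median 0.04), not far from the 30.9% and 31.7% over all genes. Of the 29, 9 were dim in all 3 groups. Between the PE arms, 17 were lower and 3 higher with JQ1 (28.8% and 25.5% of all genes). The chemokine gene Cxcl16 rose by 1.03 ± 0.056 with PE alone and fell, with a change of -0.46 ± 0.050 with JQ1 and PE, and Ccl2 stood at 0.38 ± 0.043 and -0.39 ± 0.039. The prostaglandin synthase gene Ptgs2 rose in both arms, by 1.26 ± 0.101 with JQ1 and 1.12 ± 0.113 without. The adhesion molecule gene Vcam1 fell, with a change of -1.20 ± 0.083 with JQ1 and PE, and its change with PE alone was -0.20 (adjusted p = 0.112).

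Some genes that PE lowered stood closer to the unstimulated level when JQ1 was present. They were chosen for a fall with PE alone and a higher level with JQ1 between the PE arms. That order is therefore no separate test. For Sesn1 the unstimulated arrays read 8.41, 8.51 and 8.45 (log2 level), DMSO with PE 7.28 and 7.63, and JQ1 with PE 8.37, 8.34 and 8.31. Sesn1, a stress-induced restraint on mTORC1, fell, with a change of -1.01 ± 0.084 with PE alone and stood at -0.12 with JQ1 and PE (adjusted p = 0.204), with a difference between the PE arms of 0.89 ± 0.084 (adjusted p = 1.5e-06). The kinase gene Rps6ka5 fell, with a change of -1.07 ± 0.090 with PE alone and rose by 0.49 ± 0.080 with JQ1 and PE. A second probe set of Rps6ka5 gave -0.23 in the latter comparison, past the threshold, so its direction there depends on the probe set. Its fall with PE alone (-1.07 and -1.41) and its higher level in JQ1 than in DMSO with PE (1.55 and 1.18) had the same sign on both. Ccng2, a cyclin of resting cells, fell, with a change of -0.39 ± 0.048 with JQ1 against -1.13 ± 0.054 without, and the iron exporter gene Slc40a1 with a change of -0.69 ± 0.069 against -1.11 ± 0.078. Tcp11l2 and Smtnl2 followed the same order, at -0.32 ± 0.055 and -0.30 ± 0.095 with JQ1 against -1.21 ± 0.061 and -1.001 ± 0.106. The call for Smtnl2 with JQ1 and PE did not pass without replicate 3 of JQ1 with PE (adjusted p = 0.0538).

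A further set changed with JQ1 and PE while its log2 change with PE alone was under 0.2 in size, the limit used to choose it. Its genes also had to have JQ1 with PE arrays that overlapped neither DMSO group, so that separation is no separate test. Log2 levels of Gclc were 9.30, 9.22 and 9.29 in the unstimulated arrays, 9.40 and 9.52 in DMSO with PE and 11.34, 11.26 and 11.24 in JQ1 with PE. Gclc, the catalytic subunit of the enzyme that sets the rate of glutathione synthesis, rose 4.02-fold with JQ1 and PE (adjusted p = 1.1e-11), and the JQ1 arrays stood clear of both other groups. A second probe set of Gclc gave a log2 change of 1.997 with JQ1 and PE. With PE alone it gave 0.27, above the limit of 0.2. On the brightest probe set the change of Gclc with PE alone was small but passed (0.19 ± 0.062, adjusted p = 0.0291). Log2 levels of Abhd5 were 5.98, 6.18 and 5.62 in the unstimulated arrays, 5.95 and 6.16 in DMSO with PE and 7.94, 7.85 and 7.83 in JQ1 with PE. Abhd5 encodes the coactivator of the triglyceride lipase ATGL, and its unstimulated and DMSO with PE arrays overlapped at dim levels. It rose by 1.95 ± 0.112 with JQ1 and PE. For G0s2 the unstimulated arrays read 11.82, 11.86 and 11.98 (log2 level), DMSO with PE 11.83 and 11.91, and JQ1 with PE 9.52, 9.67 and 9.55. G0s2, the protein inhibitor of the same lipase, fell, with a change of -2.31 ± 0.059 with JQ1 and PE, while its 2 DMSO groups overlapped (-0.02; adjusted p = 0.892).

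For Nars2 the unstimulated arrays read 6.33, 6.26 and 6.04 (log2 level), DMSO with PE 5.97 and 6.42, and JQ1 with PE 8.08, 7.997 and 8.05. Nars2, the mitochondrial asparaginyl-tRNA synthetase, rose from the dim limit by 1.83 ± 0.100 with JQ1 and PE. Sesn3, a sestrin like Sesn1, rose by 1.65 ± 0.111, the stress-linked nuclear protein gene Nupr2 by 1.64 ± 0.051 and Depdc7 by 1.64 ± 0.095. A dim probe set of Sesn3 gave only 0.205 with JQ1 and PE, and 0.044 between the PE arms. Genes that fell, with a change under PE alone that did not pass, included Tmem196 (-3.03 ± 0.104), the muscle gene Fsd2 (-2.53 ± 0.065) and Tmem204 (-2.40 ± 0.123). Clec14a, an endothelial lectin, fell, with a change of -2.42 ± 0.112 and Tnfrsf11b, which encodes the RANK ligand decoy osteoprotegerin, with a change of -2.40 ± 0.052. That the arrays of JQ1 with PE overlapped neither DMSO group was a condition for choosing these genes.

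The promoters of the 3 genes that lead this set by the size of their rise are shown for comparison with those of Lmcd1 and Olr1, with the same motifs in capitals (GRCr8, RefSeq).
Gclc (chr8:87510226-87510525, plus strand): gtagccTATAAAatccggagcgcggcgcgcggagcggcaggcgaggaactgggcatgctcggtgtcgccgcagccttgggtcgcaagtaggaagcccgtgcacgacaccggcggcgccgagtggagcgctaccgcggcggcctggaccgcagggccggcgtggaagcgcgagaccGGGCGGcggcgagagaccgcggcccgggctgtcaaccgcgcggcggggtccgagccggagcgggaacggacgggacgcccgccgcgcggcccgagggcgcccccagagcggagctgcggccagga
Abhd5 (chr8:130877622-130877921, plus strand): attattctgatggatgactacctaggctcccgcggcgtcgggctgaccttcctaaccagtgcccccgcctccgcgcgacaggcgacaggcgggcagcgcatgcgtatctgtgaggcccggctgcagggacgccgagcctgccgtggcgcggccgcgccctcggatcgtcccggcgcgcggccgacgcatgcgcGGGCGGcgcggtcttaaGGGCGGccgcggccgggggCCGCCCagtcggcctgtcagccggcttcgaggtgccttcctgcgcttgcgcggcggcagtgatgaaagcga
Nars2 (chr1:160711467-160711766, plus strand): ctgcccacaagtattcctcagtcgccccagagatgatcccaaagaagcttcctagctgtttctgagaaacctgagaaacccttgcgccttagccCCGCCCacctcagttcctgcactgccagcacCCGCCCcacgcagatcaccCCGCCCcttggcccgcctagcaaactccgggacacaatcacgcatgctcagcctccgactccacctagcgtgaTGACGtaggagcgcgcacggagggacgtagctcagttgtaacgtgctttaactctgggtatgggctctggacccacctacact
All 3 windows hold the GC box on one strand or the other, with 1 match in Gclc, 3 in Abhd5 and 3 in Nars2, and the Lmcd1 and Olr1 windows hold none. The Nars2 window also holds TGACG at -33, and Gclc holds TATAAA at -244. None of the 3 windows holds TGACGTCA, the AP-1 site, the E-box or the CArG box. The GC box was held by 58.2% of genes tested.

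**Figure D4:**
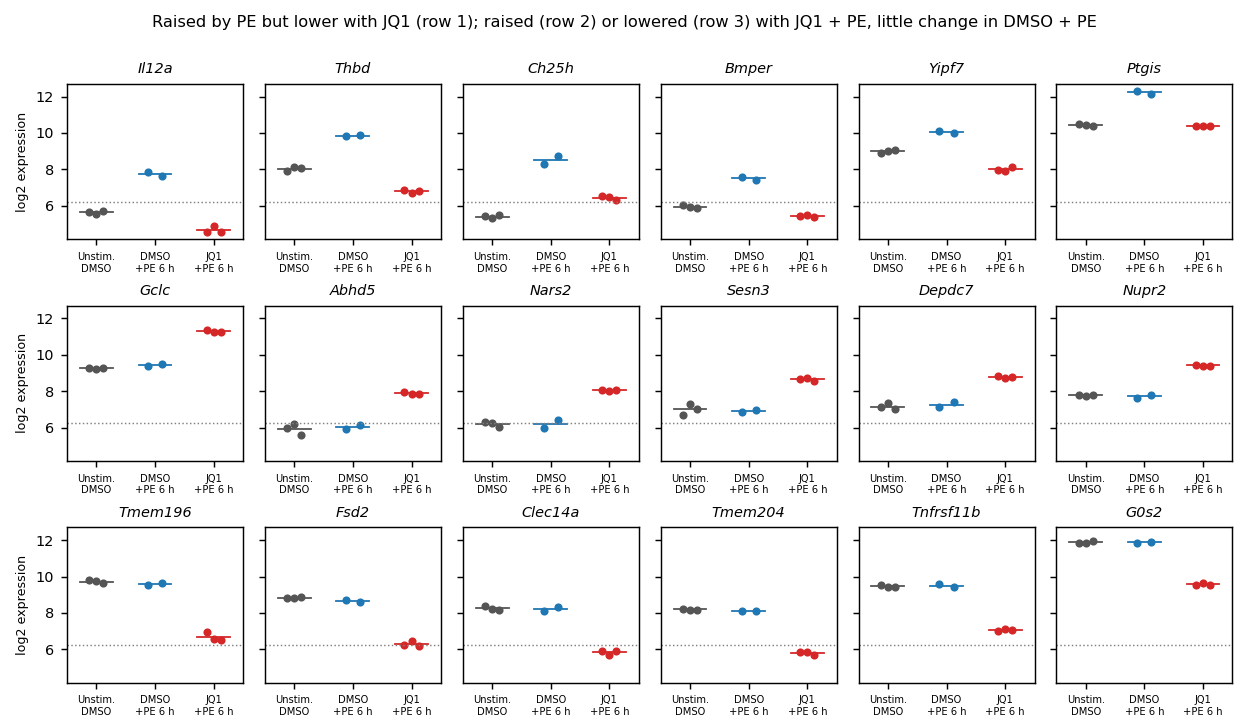
Log2 expression on each array for genes raised by PE but lower with JQ1 (upper row), and for genes raised (middle row) or lowered (bottom row) with JQ1 and PE whose change with PE alone was under 0.2. Grey, blue and red points are single arrays of unstimulated DMSO, DMSO with PE and JQ1 with PE (n = 3, 2 and 3), lines are group means and the dotted line is the dim limit of 6.23. In the lower rows grey and blue arrays lie close together and the red ones lie apart, as the choice of these genes required.

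The BET and elongation machinery itself was among the genes that moved with JQ1. Log2 levels of Brd2 were 9.44, 9.38 and 9.37 in the unstimulated arrays, 9.54 and 9.70 in DMSO with PE and 11.66, 11.65 and 11.57 in JQ1 with PE. Brd2 rose 4.69-fold with JQ1 and PE (log2 change 2.23 ± 0.048; adjusted p = 1.9e-12) and by 0.22 ± 0.054 with PE alone, while Brd3 fell, with a change of -0.51 ± 0.053 and -0.39 ± 0.059. Log2 levels of Hexim1 were 11.17, 11.12 and 11.06 in the unstimulated arrays, 11.21 and 11.30 in DMSO with PE and 12.54, 12.59 and 12.58 in JQ1 with PE. Hexim1 holds P-TEFb inactive and is known as a transcript that rises with BET inhibitors. It rose by 1.45 ± 0.040 against 0.14 ± 0.045, with the JQ1 arrays clear of both others. Cdk9, the kinase of P-TEFb, rose by 0.47 ± 0.052, and Polr2a, the large subunit of RNA polymerase II, by 1.21 ± 0.050 against -0.15 with PE alone (adjusted p = 0.0539). The elongation factor gene Paf1 rose by 0.55 ± 0.034, and the pausing factor gene Nelfcd fell, with a change of -0.88 ± 0.046. Over the list of 26, 12 rose and 11 fell with JQ1 and PE (30.9% and 31.7% of all genes). With PE alone 7 rose and 9 fell (18.3% and 18.9% of all genes).

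Histone genes were higher. Of 12 measured, 9 rose and 1 fell with JQ1 and PE (median 0.46, beside 30.9% and 31.7% of all genes). With PE alone 1 rose and 3 fell (median -0.05, beside 18.3% and 18.9% of all genes). H2ax, the variant marked at DNA breaks, rose by 2.16 ± 0.056 against 0.25 ± 0.063, and the linker histone genes H1f10 and H1f2 by 1.37 ± 0.098 and 0.57 ± 0.051. H3c1 rose from a dim level by 1.91 ± 0.113, and Macroh2a2 fell, with a change of -0.88 ± 0.092. Messages of most replication-dependent histones lack a poly(A) tail, and how well the array labelling captured them was not tested.

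Of 21 genes of the transcription factor NRF2 and antioxidant defence, 14 rose and 4 fell with JQ1 and PE (30.9% and 31.7% of all genes; median 0.21). PE alone raised 5 and lowered 7 (median 0.00, beside 18.3% and 18.9% of all genes). Besides Gclc, those that rose included Srxn1, which repairs peroxiredoxins (2.01 ± 0.060), thioredoxin reductase Txnrd1 (1.31 ± 0.055) and the metallothionein gene Mt2A (1.43 ± 0.068), while Gpx1 fell (-0.39 ± 0.031). Of 24 FOXO, atrophy and autophagy genes, 11 rose and 8 fell with JQ1 and PE, beside 30.9% and 31.7% of all genes. With PE alone 3 rose and 14 fell, beside 18.3% and 18.9%. The insulin receptor substrate gene Irs2 rose in both arms (1.98 ± 0.047 and 1.41 ± 0.053), and Arrdc2 rose by 1.77 ± 0.064 with JQ1 and fell with PE alone (-0.40 ± 0.072). For Trim54 the unstimulated arrays read 11.82, 11.71 and 11.75 (log2 level), DMSO with PE 11.27 and 11.38, and JQ1 with PE 8.71, 8.43 and 8.48. The muscle ubiquitin ligase gene Trim54 fell 9.30-fold with JQ1 and PE; with PE alone it stood at a log2 change of -0.44 ± 0.071 (difference -2.78 ± 0.071, adjusted p = 3.4e-11).

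Stress genes of protein folding were divided: of 30, 13 rose and 12 fell with JQ1 and PE (30.9% and 31.7% of all genes). With PE alone 14 rose and 2 fell (18.3% and 18.9% of all genes). Ddit3, the CHOP transcription factor, rose by 1.28 ± 0.045 against 0.14 ± 0.050, and the glutathione-degrading enzyme gene Chac1 by 2.004 ± 0.059 against 1.05 ± 0.066. Herpud1, of endoplasmic reticulum degradation, fell, with a change of -0.86 ± 0.043.

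Interferon response genes were lower almost throughout. Of 27 measured, 25 fell and 0 rose with JQ1 and PE (1 rose when arrays were centred), 15 of them at least 2-fold, with a median log2 change of -1.21. With PE alone 9 fell and 0 rose, with a median of -0.23. Between the PE arms 23 were lower and 1 higher with JQ1. All genes gave 31.7% falls and 30.9% rises with JQ1 and PE, and 18.9% and 18.3% with PE alone. Of all genes, 28.8% were lower and 25.5% higher with JQ1 between the PE arms. Log2 levels of Mx2 were 9.38, 9.77 and 9.84 in the unstimulated arrays, 8.74 and 8.97 in DMSO with PE and 6.88, 6.32 and 6.08 in JQ1 with PE. Mx2, an antiviral GTPase, fell, with a change of -3.24 ± 0.226 (adjusted p = 4.9e-08) with JQ1 and PE and with a change of -0.82 ± 0.253 with PE alone, and the JQ1 arrays lay below all others. A dim probe set of Mx2 stood at -0.15 with JQ1 and PE and did not pass. For Ifit2 the unstimulated arrays read 10.09, 10.20 and 10.26 (log2 level), DMSO with PE 9.81 and 9.78, and JQ1 with PE 8.64, 8.35 and 8.19. Ifit2, which blocks translation of viral RNA, fell, with a change of -1.79 ± 0.112 against -0.38 ± 0.125, and Ifi44 with a change of -2.27 ± 0.131 against -0.63 ± 0.146. The transcription factor gene Irf1 fell in both arms, with a change of -0.63 ± 0.039 and -0.56 ± 0.044 (difference -0.08, adjusted p = 0.17). Of 16 macrophage and leukocyte markers, 4 fell and 0 rose (2 and 3 when arrays were centred), and their summed level on the log2 scale was 10.998 to 11.094 unstimulated, 11.06 to 11.11 with DMSO and PE and 10.83 to 10.88 with JQ1 and PE. The markers Ptprc, Csf1r, C1qa and C1qb were dim in the unstimulated cells, and Cd14 fell, with a change of -0.94 ± 0.078. The part of such cells in the interferon result was not tested.

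**Figure D5:**
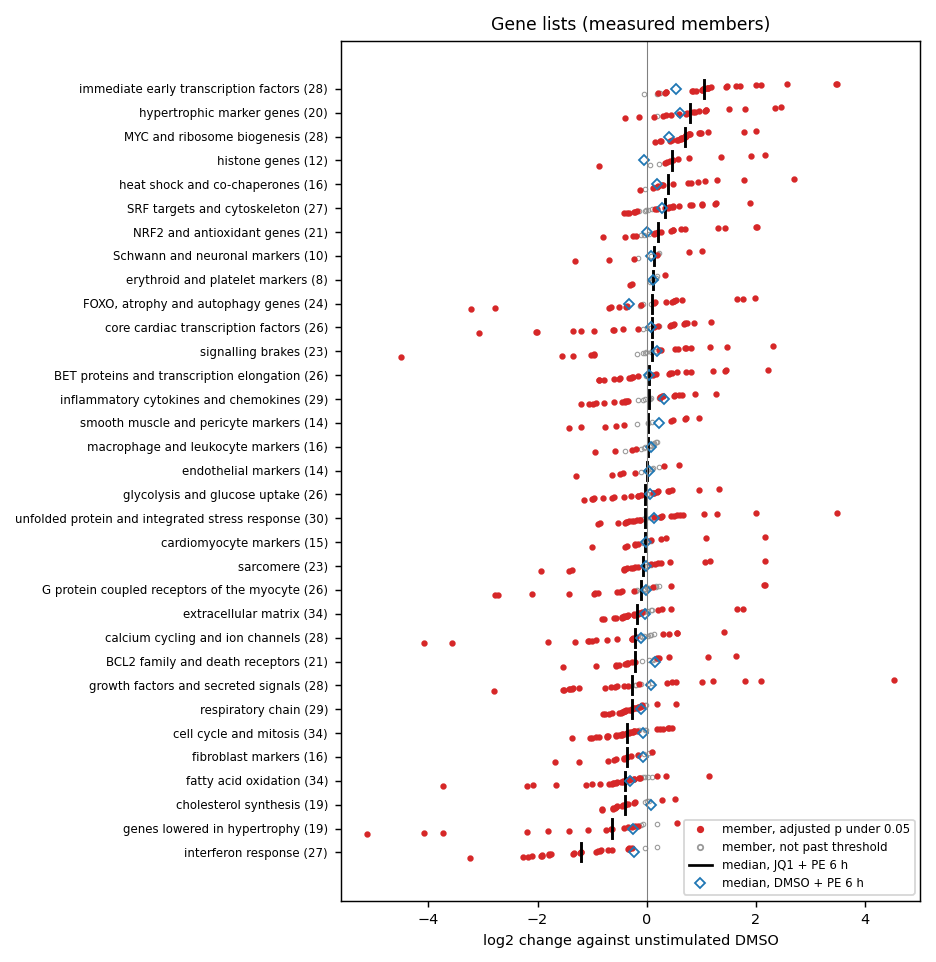
Log2 change against unstimulated DMSO (x axis) of each measured member of the 33 gene lists in JQ1 with PE at 6 h (n = 3), with filled red points for members past an adjusted p of 0.05 and open grey points for the others. Black bars are list medians in JQ1 with PE and blue diamonds list medians in DMSO with PE (n = 2); early transcription factors stand at the top and interferon genes at the bottom.

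Genes of sterol synthesis, cell division and matrix were mostly lower with JQ1 and PE. Of 19 genes of cholesterol synthesis, 14 fell and 2 rose (median -0.41), and with PE alone 2 fell and 7 rose (median 0.08). For this list and the next, the shares over all genes were 31.7% and 30.9%, and 18.9% and 18.3% with PE alone. The squalene synthase gene Fdft1 fell, with a change of -0.81 ± 0.050 and the regulator gene Srebf1 with a change of -0.62 ± 0.046, while Idi1 rose in both arms (0.53 ± 0.035 and 0.41 ± 0.039). Of 34 cell cycle and mitosis genes, 25 fell and 6 rose (median -0.36), beside 10 and 6 with PE alone. For Ccnd1 the unstimulated arrays read 10.91, 10.81 and 10.69 (log2 level), DMSO with PE 10.86 and 11.04, and JQ1 with PE 9.43, 9.39 and 9.51. Cyclin D1, Ccnd1, fell, with a change of -1.36 ± 0.065 with JQ1 and PE, with both DMSO groups well above it, and the replication licensing genes Mcm6 and Mcm2 fell, with a change of -1.05 ± 0.033 and -0.997 ± 0.046. Ccne1, cyclin E1, rose by 0.46 ± 0.037.

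Of 34 extracellular matrix genes, 22 fell and 5 rose with JQ1 and PE (median -0.17, and 16 and 7 when arrays were centred). PE alone lowered 4 and raised 6. Among all genes, 31.7% fell and 30.9% rose with JQ1 and PE, and 18.9% and 18.3% with PE alone. Col8a1 fell, with a change of -0.82 ± 0.059 and the protease gene Adamts1 with a change of -0.79 ± 0.067, whereas the protease inhibitor gene Timp1 rose in both arms (1.65 ± 0.044 and 1.01 ± 0.050). Fibroblast markers moved with this list. Of 16, 11 fell and 1 rose (0 or 2 under other settings), with a median of -0.36, and their summed log2 level was 15.93 to 15.96 unstimulated, 15.85 to 15.88 with DMSO and PE and 15.64 to 15.65 with JQ1 and PE. None was dim in all 3 groups. For Pdgfra the unstimulated arrays read 9.89, 9.96 and 10.05 (log2 level), DMSO with PE 10.12 and 10.17, and JQ1 with PE 8.29, 8.24 and 8.35. Pdgfra, the platelet-derived growth factor receptor of fibroblasts, fell, with a change of -1.68 ± 0.055 with JQ1 and PE and rose by 0.18 ± 0.062 with PE alone. Col1a1 stood at -0.06 ± 0.041 (adjusted p = 0.226) and Col1a2 at -0.16 ± 0.034 (adjusted p = 0.0012). The part of fibroblasts in the matrix result was not tested.

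Of 28 growth factors and secreted signals, 8 rose and 15 fell with JQ1 and PE (median -0.27, beside 30.9% and 31.7% of all genes). With PE alone 12 rose and 7 fell (median 0.07, beside 18.3% and 18.9% of all genes). Log2 levels of Stc1 were 10.27, 10.17 and 10.28 in the unstimulated arrays, 10.58 and 10.55 in DMSO with PE and 7.43, 7.59 and 7.33 in JQ1 with PE. Stanniocalcin, Stc1, rose slightly with PE alone (0.33 ± 0.067) and fell 6.91-fold with JQ1 and PE (adjusted p = 1.8e-12). Igf1 fell, with a change of -1.41 ± 0.040 while its change with PE alone was 0.03 (adjusted p = 0.677), and the vascular factors Vegfc and Adm fell in both arms (-1.52 ± 0.044 and -1.42 ± 0.046 with JQ1). Clcf1, a cytokine of the interleukin 6 family, was dim in all groups. Among 26 G protein coupled receptor genes of the myocyte and their partners, 4 rose and 11 fell with JQ1 and PE (median -0.11). The count that fell is not far from the 31.7% over all genes. With PE alone 6 rose and 6 fell, not far from the 18.3% and 18.9% of all genes.

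Of the 3 alpha1-adrenergic receptor genes, which encode the receptors for PE, Adra1b and Adra1d fell, and the dim Adra1a stood at a log2 change of -0.19 ± 0.115 with JQ1 and PE (adjusted p = 0.163). Log2 levels of Adra1b were 11.02, 10.999 and 11.08 in the unstimulated arrays, 9.45 and 9.57 in DMSO with PE and 8.22, 8.32 and 8.20 in JQ1 with PE. Adra1b, an alpha1-adrenergic receptor, fell 6.90-fold with JQ1 and PE and 2.87-fold with PE alone, in 3 steps without overlap. Adra1d fell to a dim level with a change of -2.73 ± 0.102 against -0.64 ± 0.115, and the angiotensin receptor gene Agtr1a with a change of -1.42 ± 0.057 against -0.83 ± 0.064. Protein kinase C alpha, Prkca, which acts below these receptors, rose by 2.15 ± 0.055 against 0.57 ± 0.061. Of 23 genes that brake such signalling, 10 rose and 6 fell with JQ1 and PE (30.9% and 31.7% of all genes). PE alone raised 10 and lowered 4 (18.3% and 18.9% of all genes). Between the PE arms 4 were higher and 11 lower with JQ1 (25.5% and 28.8% of all genes). The phosphatase gene Dusp2 rose from a dim level by 2.32 ± 0.057 against 1.01 ± 0.064, and Errfi1, an inhibitor of the EGF receptor, by 1.47 ± 0.059 against 0.85 ± 0.066.

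Cardiac transcription factor genes were divided, with 11 of 26 raised and 10 lowered with JQ1 and PE (30.9% and 31.7% of all genes). PE alone raised 10 and lowered 8 (18.3% and 18.9% of all genes). Gata4, a regulator of the hypertrophic programme, rose by 0.74 ± 0.044 and 0.53 ± 0.049, and the methyltransferase gene Smyd1 by 1.18 ± 0.050 and 0.44 ± 0.056. For Irx3 the unstimulated arrays read 12.01, 12.05 and 11.84 (log2 level), DMSO with PE 10.38 and 10.52, and JQ1 with PE 8.97, 8.81 and 8.87. Irx3, a factor of the conduction system, fell 8.47-fold with JQ1 and PE, with DMSO and PE in between, and a second probe set gave -3.07 while a dim one stood at 0.08. Of 21 genes of the BCL2 family and death receptors, 5 rose and 11 fell with JQ1 and PE, beside the same shares over all genes. PE alone raised 9 and lowered 2. The caspase inhibitor gene Cflar fell, with a change of -0.93 ± 0.058 with JQ1 and PE and rose by 0.33 ± 0.065 with PE alone. The TWEAK receptor gene Tnfrsf12a rose in both arms (1.63 ± 0.046 and 1.58 ± 0.051), and the difference did not pass (0.05; adjusted p = 0.456).

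Markers of the cell types in the culture were also read, beside the 30.9% of all genes raised and 31.7% lowered with JQ1 and PE. Of 15 cardiomyocyte markers, 5 rose and 6 fell with JQ1 and PE (7 and 5 when centred, 4 and 8 after repeated quantile normalization). Their summed log2 level was 17.64 to 17.66 unstimulated, 17.69 with DMSO and PE and 17.67 to 17.69 with JQ1 and PE. Of 14 endothelial markers 2 rose and 5 fell, with a summed log2 level of 10.58 to 10.63 unstimulated and 10.34 to 10.42 with JQ1 and PE. Pecam1, Vwf and Tie1 were dim throughout, and Kdr fell, with a change of -1.29 ± 0.116 to a dim level. Of 14 smooth muscle and pericyte markers 5 rose and 5 fell, with Acta2 at 0.44 ± 0.055 with JQ1 and PE and 0.85 ± 0.061 with PE alone. Of 8 erythroid and platelet markers 1 rose and 2 fell, and centring gave 4 and 0. Of 10 Schwann and neuronal markers 3 rose and 3 fell, and 6 were dim in all 3 groups. Tubb3 rose by 1.003 ± 0.066 and the dim Nefl by 0.77 ± 0.082. A dim probe set of Tubb3 stood at -0.12 and did not pass. Dbh, the noradrenaline-making enzyme, fell to a dim level, with a change of -1.31 ± 0.108. The part of these cell types in the falls of Clec14a and Thbd, which endothelial cells express, was not tested.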

How the data were processed

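Total RNA of rat ventricular myocytes was measured on 14 Affymetrix arrays, as the labels' protocols state. The authors deposited 1 log2 expression value per probe set and array. How the authors summarised and normalized them is not given in the sources used here, and limma is named in the submitters' processing notes with no role. Changes and errors therefore rest on values that are already on a common scale, and another scaling moves the balance of raised and lowered genes.

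Of 20223 probe sets, 18510 had 1 gene symbol, 305 several and 1402 none, and 6 were controls. Symbols were updated through RefSeq's rat table (GRCr8): 18461 probe sets matched by gene identifier, 1 by accession, and 48 kept the platform's symbol. The probe set with the highest mean over the 14 arrays stood for a gene (3797 genes had several), which left 13184 genes. A model with a mean per group was fitted to all 14 arrays with limma 3.58.1 (R 4.3.3), which left 9 degrees of freedom for the spread. Tests were two-sided, with p-values adjusted by Benjamini-Hochberg over all genes, with a threshold of 0.05. Errors are standard errors, and array number limits them: the median was 0.060 for 3 against 3 arrays and 0.068 with the 2 arrays of DMSO with PE. Promoters came from RefSeq (GRCr8), using the first start site listed. Motif shares carry no test.

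The gene lists (33, with 751 of 844 entries measured), the panel of 28 genes (25 measured) and the rule for named genes were chosen with earlier results of these data known. Genes named for the size of their change passed the threshold with no overlap between the arrays of the contrasts that chose them. They were the 12 raised and 12 lowered most, above the dim limit in the higher group. Up to 6 per direction moved most in both arms, reversed most between the PE arms after at least 2-fold with PE, or moved with JQ1 and a PE change under 0.2. Up to 4 members with the smallest p in a list's main direction, 1 in the other, and the panel complete it; list members had to pass the threshold only, a departure from the rule that let in Gsn and Hbb, whose arrays overlapped, and panel genes had to meet neither. Lists carry counts and medians without a set test. Alternatives covered the arrays fitted, the replicate number as a block, the probe set rule, dim genes, scaling, the variance prior and leaving out each array.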

Additional observations from a re-analysis of the deposited data

Results flagged for a closer look

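For 7 genes of the panel the change with JQ1 and PE had one sign at 6 h and the other at 48 h against the same unstimulated arrays, both past the threshold. The difference between 48 h and 6 h was tested directly in the limma fit (3 arrays each). Il6, an inflammatory cytokine gene, went from 0.50 at 6 h to -1.72 at 48 h on the log2 scale, a difference of -2.22 ± 0.135 (SE; adjusted p = 2.5e-08). Myc went from 2.00 to -0.36 (difference -2.36 ± 0.078, adjusted p = 1.5e-10). Rgs2 and Rcan1, which restrain Gq and calcineurin signalling, went from 1.16 to -0.31 (difference -1.47 ± 0.055, adjusted p = 3.9e-10) and from 0.72 to -0.56 (difference -1.28 ± 0.051, adjusted p = 6.3e-10). The AP-1 subunit gene Fosl1 went from 1.17 to -0.26 (difference -1.43 ± 0.066, adjusted p = 2.2e-09), and Ccn2 from 0.14 to -0.35 (difference -0.49 ± 0.039, adjusted p = 2.6e-07). Myh7 ran the other way, from -0.39 to 0.11 (difference 0.51 ± 0.040, adjusted p = 2.7e-07). Its fall at 6 h did not pass on a second probe set (-0.22, adjusted p = 0.174). The rise of Ccn2 at 6 h did not pass after repeated quantile normalization. The later and earlier arrays compared differ in time alone by their labels, whereas both differ from the unstimulated ones in JQ1, PE and time together. No group of these comparisons holds the 4 arrays needed to look for a single outlying array.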

How the results depend on the processing

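Replicate numbers are shared between groups in the labels but nothing there says that they pair the arrays. Deviations of same-numbered arrays of JQ1 with PE and unstimulated DMSO correlated at 0.03, -0.09 and 0.03, so they were not treated as pairs. With the replicate number as a block, 8160 genes passed in JQ1 with PE against unstimulated DMSO (4016 raised and 4144 lowered), and it changed none of the 202 calls of named genes in that comparison. Centring arrays moved the split of calls most, as given above (8925 called), and repeated quantile normalization gave 8467, 4523 raised and 3944 lowered. Taking the mean of a gene's probe sets lowered the count of genes at least 2-fold lower with PE alone from 70 to 46 and turned Atp2a2 from -0.27 to 0.14 (adjusted p = 0.019). Leaving out 1 array at a time gave 3793 to 3917 raised and 3978 to 4069 lowered in the main comparison. It gave 2003 to 2227 and 1759 to 2334 with PE alone, and 3000 to 3185 and 3384 to 3646 between the PE arms, each smaller fit resting on fewer arrays. Of the named genes, calls that ended under some setting were mostly small changes of markers (Gsn, Hbb, Pf4, Ahsp, Sox10, Lyz2, Fcer1g), with Hspd1, Ccn2, Bcl2l1, Rps6ka5 and Smtnl2. Of 86 other probe sets of named genes, 63 passed in the direction of the brightest one and 4 in the opposite, of Atp2a2, Bcl2l2 and Rps6ka5. Signal near background limits how well the size of a change of a dim gene is known.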
